A study of Mus musculus with 2 samples.

Results

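The 10 genes described here encode general promoter-binding factors, sequence-specific proteins found at the promoters of many genes in most cell types. Nrf1, Gabpa, Nfya, Nfyb, Nfyc, Sp1, Sp3, Yy1, Zfp143 and Thap11 were taken by name from the 21938 protein-coding genes of GENCODE vM21 (GRCm38). A peak was assigned to a promoter when its midpoint lay between 1000 bp upstream and 500 bp downstream of any annotated transcription start site (TSS) of the gene, and otherwise to the gene body or to the flank of 20 kb on either side. By this rule the 10 loci held 24 of the 28718 peaks obtained with the GFP antibody and 26 of the 28167 obtained with the SRCAP antibody. These lists contain binding sites only and carry no expression values, so the transcript level of the 10 genes, and the embryonic stem cell identity of the cells through marker transcripts, were not analysed here.

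The peaks came from CUT&RUN, in which a nuclease directed by an antibody cuts out DNA next to a chromatin protein, and the protein mapped was SRCAP, the ATPase of a remodelling complex that replaces H2A with the variant H2A.Z in nucleosomes. Both libraries were made from SYAT mouse embryonic stem cells (mESCs), a CGR8 derivative in which YPet and an auxin-inducible degron (AID) were knocked in at the 3′ end of both Srcap alleles so that both libraries carry the tagged SRCAP. OsTir1 under the EF1a promoter was introduced by lentivirus into 1 homozygous clone, and the line was sorted for cells that lose YPet under indole-3-acetic acid (IAA). The GFP_antibody group was 1 library made with ab290, which recognises YPet, and the SRCAP_antibody group was 1 library made with ESL-103. The titles name no treatment for either library. The study states that its CUT&RUN map was from control SYAT cells, which received auxinole against basal loss of SRCAP. Its methods describe CUT&RUN with the SRCAP antibody and use the GFP antibody in CUT&Tag and Western blot. The assay of the GFP library therefore rests on its label. With 1 library per antibody there was no replicate and no test between antibodies, and the sequencing depth of the libraries is unknown.

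NRF1, nuclear respiratory factor 1, binds GC-rich sites at housekeeping and mitochondrial genes, and GABPA is the DNA-binding ETS subunit of GA-binding protein. NFYA, NFYB and NFYC form the NF-Y trimer, which recognises the CCAAT box, whereas SP1 and SP3 are zinc finger proteins that bind GC boxes. YY1 binds a short site near many start sites, ZFP143 (the mouse ZNF143) occupies a longer site, and THAP11, also called Ronin, acts with the cofactor HCF-1 in embryonic stem cells. Among the questions of the study is how SRCAP and transcription factors relate on chromatin, with YY1 and NFYA among the factors it mapped. The values given below show which genes of such factors had peaks and which, like Yy1, had no promoter peak in either list.

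At 5 of the 6 genes whose promoter peaks overlapped between the lists, the sequence at the midpoint of the overlap is printed, because this is the stretch that both antibodies recovered. Annotated exon bases were left out and at most 200 bp were kept. Capitals mark exact matches to 6 consensus sequences searched on both strands: GCATGCGC for NRF1, CCGGAAG for the ETS family, either CCAATCA or CCAATCG, and likewise either CCAATGA or CCAATGG, for NF-Y, GGGGCGGG for the SP family, AANATGGC for YY1 and ACTACANNT for ZFP143, which was also used for THAP11 (N is any base). No consensus contains another, although matches can share end bases. The coordinates on GRCm38 are chr17:48409907-48410013 for Nfya (107 bp, minus strand), chr10:82764145-82764295 for Nfyb (151 bp, minus strand), chr4:120815778-120815977 for Nfyc (200 bp, minus strand), chr15:102405838-102406037 for Sp1 (200 bp, plus strand) and chr8:105854804-105855003 for Thap11 (200 bp, plus strand). Each is written 5′ to 3′ on the strand of its gene.
Nfya: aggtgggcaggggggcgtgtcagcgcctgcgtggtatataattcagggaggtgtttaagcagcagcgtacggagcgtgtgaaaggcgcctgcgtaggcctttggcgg
Nfyb: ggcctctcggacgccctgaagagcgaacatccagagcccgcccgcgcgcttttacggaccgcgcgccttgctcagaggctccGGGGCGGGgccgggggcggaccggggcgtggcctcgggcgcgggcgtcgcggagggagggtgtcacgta
Nfyc: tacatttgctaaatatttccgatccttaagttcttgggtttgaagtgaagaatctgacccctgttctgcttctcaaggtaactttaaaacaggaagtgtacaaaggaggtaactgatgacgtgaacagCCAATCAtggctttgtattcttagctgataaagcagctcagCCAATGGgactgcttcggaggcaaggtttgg
Sp1: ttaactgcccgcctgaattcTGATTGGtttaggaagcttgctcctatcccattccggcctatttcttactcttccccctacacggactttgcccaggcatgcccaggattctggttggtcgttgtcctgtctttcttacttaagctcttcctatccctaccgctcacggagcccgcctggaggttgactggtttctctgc
Thap11: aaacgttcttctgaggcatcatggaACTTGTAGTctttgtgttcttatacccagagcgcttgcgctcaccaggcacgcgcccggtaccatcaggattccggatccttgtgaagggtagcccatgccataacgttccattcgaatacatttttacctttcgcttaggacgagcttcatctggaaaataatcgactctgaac

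The Gabpa overlap consisted of exon bases throughout. For this gene 30 bases around each of its ETS matches are shown, a choice made after the values were seen. They lie on the plus strand at chr16:84834848-84834877 and chr16:84835020-84835049, and the capitals are the reverse complement of CCGGAAG.
Gabpa, upstream site: ccaccgttctaCTTCCGGccctggctccgc
Gabpa, downstream site: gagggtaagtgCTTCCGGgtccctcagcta

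Of the printed stretches, that of Nfya held none of the 6 consensus sequences. Nfyb held an SP match, Nfyc held 2 NF-Y matches, Sp1 held 1 NF-Y match in reverse orientation and Thap11 held 1 ZFP143 match in reverse orientation. A match is a description of the letters and was not tested as a binding site.

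Promoter peaks were found at 7 of the 10 genes in the GFP list (70.0%, 95% CI 39.7 to 89.2) and at 7 of 10 in the SRCAP list (the same interval). Both lists had one at 6 genes (60%, 31.3 to 83.2), namely Gabpa, Nfya, Nfyb, Nfyc, Sp1 and Thap11, and at least 1 list had one at 8 genes (80%, 49.0 to 94.3). At Nrf1 only the GFP list contained one, at Zfp143 only the SRCAP list, and at Sp3 and Yy1 neither. Intervals are Wilson intervals and cover counting error only, since genes are not replicates.

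Over all protein-coding genes the share was 35.0% by the GFP list, 35.7% by the SRCAP list, 27.0% by both and 43.6% by at least 1. Promoters rich in CpG are the closer reference for the 10 genes, since 9 of 10 fall in that class (GC content over 50% and an observed over expected CpG ratio over 0.6 in 500 bp at the first TSS). Nfyc was the exception, with a ratio of 0.198. For the 10416 genes with such promoters the share was 52.4% by the GFP list, 53.4% by the SRCAP list, 41.2% by both and 64.6% by at least 1. These shares lie inside the counting intervals of the 10 genes, so with 10 genes no difference from other CpG-rich promoters was detectable. This reference was added after the values were known. By status, the median CpG ratio over protein-coding genes was 0.762 with a promoter peak in both lists, 0.748 with a peak in 1 list and 0.303 without, and the ratios of Sp3 (0.973) and Yy1 (0.989), both without a peak, are above all 3 medians.

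**Figure D1:**
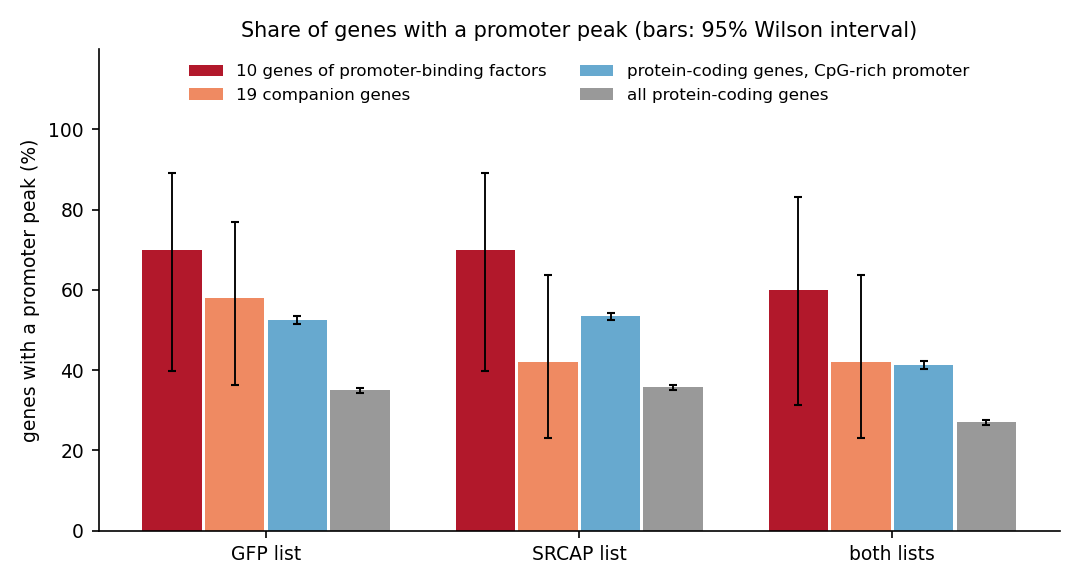
Share of genes with a promoter peak (%) by the GFP list, the SRCAP list and both, for the 10 genes, 19 related genes, protein-coding genes with a CpG-rich promoter and all protein-coding genes; lines are 95% Wilson intervals. The bars of the 10 genes stand at 70.0, 70.0 and 60%, and their intervals include the CpG-rich shares of 52.4, 53.4 and 41.2%.

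The NF-Y genes, encoding the 3 subunits of the CCAAT-binding trimer, all had a promoter peak in both lists. Nfya (chr17:48386885-48409906, minus strand), whose product makes the sequence contacts of the trimer, carried the widest promoter peaks of the set. The GFP peak at chr17:48409551-48410572 was 1022 bp wide with a score of 116, and the SRCAP peak at chr17:48409571-48410328 was 758 bp wide with a score of 169. The score is a value assigned by the authors, never below 13 and of unstated meaning, so it was used for rank within a list and not as a level between lists. By rank, the Nfya peaks stood at the 90.6th percentile of the GFP list and the 96.2nd of the SRCAP list, and their midpoints were 155 and 43 bp upstream of the nearest Nfya TSS. The interval also holds the promoter of Oard1, which encodes an ADP-ribosyl hydrolase and starts 108 bp away on the opposite strand, so from these peaks the genes cannot be told apart.

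Nfyb (chr10:82748701-82764144, minus strand), encoding a histone-fold subunit, had the lowest-scoring of the 6 overlapping promoter pairs. Its GFP peak at chr10:82764071-82764486 scored 48 (52.9th percentile), and the SRCAP peak at chr10:82763989-82764322 scored 43 (45.8th percentile). The midpoints lay 134 and 11 bp upstream of the TSS, a gap of 123 bp that was the widest among the 15 overlapping pairs at these loci. The SP match printed above lies in this overlap.

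Nfyc (chr4:120757438-120831572, minus strand), encoding the histone-fold partner of NFYB, has 7 groups of TSSs and had no peak at the outermost of them. The pair recovered with both antibodies was at an internal TSS of 1 coding transcript (120815712), where the GFP peak at chr4:120815712-120816079 scored 99 and the SRCAP peak at chr4:120815748-120816009 scored 117. These are the 86.7th and 90.3rd percentiles, and the midpoints were 183 and 166 bp upstream. The CpG ratio at this TSS was 0.321, below the limit of the CpG-rich class, and the sequence there holds both printed CCAAT matches. A further peak, in the SRCAP list alone, was at chr4:120825814-120826073 (score 34, 31.5th percentile), 236 bp upstream of the group with 4 coding transcripts and a CpG ratio of 0.957. The GFP list had no peak at that group.

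Sp1 (chr15:102406143-102436404, plus strand), the founding member of the GC-box-binding SP family, had the highest promoter scores of the set in both lists. The GFP peak at chr15:102405644-102406245 scored 283 and the SRCAP peak at chr15:102405545-102406233 scored 234, the 99.0th and 98.3rd percentiles of their lists. Restricted to promoter peaks, the ranks were the 98.7th and 98.1st percentiles. The midpoints were 199 and 254 bp upstream of the TSS, and 590 bp overlapped.

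Sp3 (chr2:72936427-72980446, minus strand), which encodes a protein of closely similar DNA binding, had no promoter peak in either list. Its nearest peak was 5.17 kb upstream of the gene in the GFP list (score 27) and 15.4 kb upstream in the SRCAP list (score 48). Both TSS groups at the start of Sp3 were CpG-rich, with ratios of 0.973 and 0.959, beside 0.632 at the first TSS of Sp1. The antisense transcript Sp3os starts 230 bp from the Sp3 TSS on the other strand and had no peak in its promoter window.

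Gabpa (chr16:84834925-84863779, plus strand) had overlapping peaks centred on its start site. The GFP peak at chr16:84834816-84835048 scored 77 (78.6th percentile), and the SRCAP peak at chr16:84834689-84835107 scored 60 (64.5th percentile). Their midpoints were 7 bp downstream and 27 bp upstream of the TSS. Atp5j, encoding a subunit of the mitochondrial ATP synthase, starts 31 bp away on the opposite strand, so these peaks belong to both promoters. A weak SRCAP peak of score 23 in the Gabpa body, 1.29 kb from the 5′ end, was also in the promoter window of Atp5j.

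Nrf1 (chr6:30047988-30153458, plus strand) was marked with the GFP antibody at chr6:30047203-30047721, with a score of 55 (61.5th percentile). Its midpoint was 526 bp upstream of the TSS, the farthest of all promoter peaks here, and the peak ended before the CpG-rich start of the gene (GC content 77.4%, CpG ratio 0.955). No SRCAP peak overlapped it, and the SRCAP peak nearest to the 5′ end was 19.6 kb away. With a window of 500 bp on either side of the TSS the GFP peak was no longer counted. This left 6 of the 10 genes in that list, beside 32.4% of all protein-coding genes with the same window.

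Thap11 (chr8:105855132-105856950, plus strand), the shortest gene of the set, had a promoter pair with nearly the same edges in both lists. The GFP peak at chr8:105854741-105855061 scored 154 (95.3rd percentile) and the SRCAP peak at chr8:105854747-105855070 scored 60 (64.5th percentile). The midpoints differed by 7 bp, while the ranks differed more than at any other promoter pair. Promoter peaks were more frequent on chromosome 8 than elsewhere, at 49.2% of its protein-coding genes by the GFP list and 51.3% by the SRCAP list, against 34.3% and 34.9% on the other chromosomes, and the part of this in the Thap11 peaks was not tested.

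Zfp143 (chr7:110061217-110095394, plus strand) had 1 promoter peak, in the SRCAP list at chr7:110061237-110061545. Its score of 27 was the lowest of the 15 promoter peaks (16.7th percentile), and the midpoint lay 174 bp downstream of the TSS in exon sequence. The uncharacterised transcript AA474408 starts 108 bp from the Zfp143 TSS on the opposite strand, and the peak falls in its promoter window too. No peak of the GFP list lay closer than 17.6 kb to any Zfp143 TSS.

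Yy1 (chr12:108792973-108820148, plus strand) had neither a promoter peak nor a peak in the gene. The only peak within 20 kb was in the GFP list at chr12:108835233-108835723 (score 40, 39.8th percentile), 15.3 kb past the 3′ end and inside the promoter windows of Slc25a29 and Slc25a47, which encode mitochondrial carriers. The SRCAP list had none, and its nearest peak was 29.3 kb from the Yy1 TSS. The Yy1 promoter was among the richest in CpG of the set, with a ratio of 0.989 and a GC content of 76.4%. The transcript Gm34220 starts 230 bp away on the opposite strand and likewise had no peak.

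**Figure D2:**
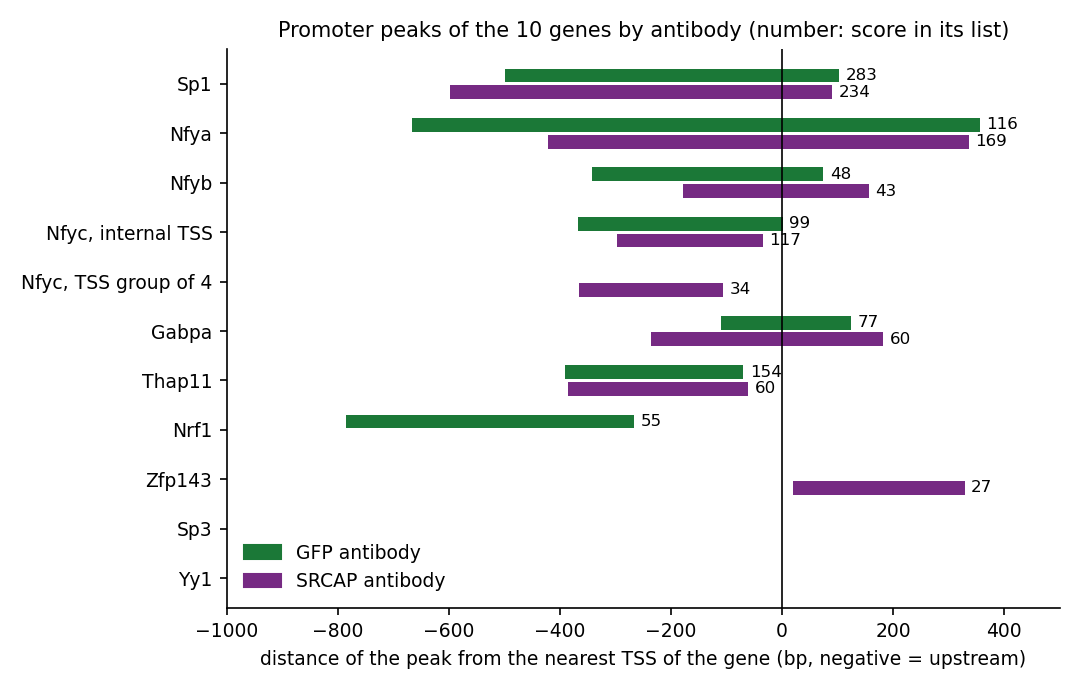
Promoter peaks of the 10 genes, drawn from start to end as the distance from the nearest TSS (bp, negative is upstream), green for the GFP antibody and purple for the SRCAP antibody, with the score beside each bar. Peaks pair up at Sp1, Nfya, Nfyb, an internal TSS of Nfyc, Gabpa and Thap11, Nrf1 has a green bar alone, Zfp143 a purple bar alone, and Sp3 and Yy1 have none.

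Counted over single start sites, the 10 genes have 37 groups of TSSs, joined where neighbours lay up to 500 bp apart. A GFP peak was at 7 groups, a SRCAP peak at 8, both at 6 and neither at 28. None of the 17 groups made of noncoding transcripts had a peak, where 6.46% of such groups over all protein-coding genes had one in either list, so a count of 0 lies near that background. Of the 11 CpG-rich groups, 8 had a peak in at least 1 list (72.7%, 43.4 to 90.3), beside 56.8% of the CpG-rich TSS groups of all protein-coding genes. The 3 without were both of Sp3 and that of Yy1. Of the 26 other groups, the internal start of Nfyc alone had a peak (3.85%, 0.682 to 18.9), beside 9.78% over all genes. Each of the 8 genes with a promoter peak had it at 1 group only, except Nfyc, and the other alternative starts had none.

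**Figure D3:**
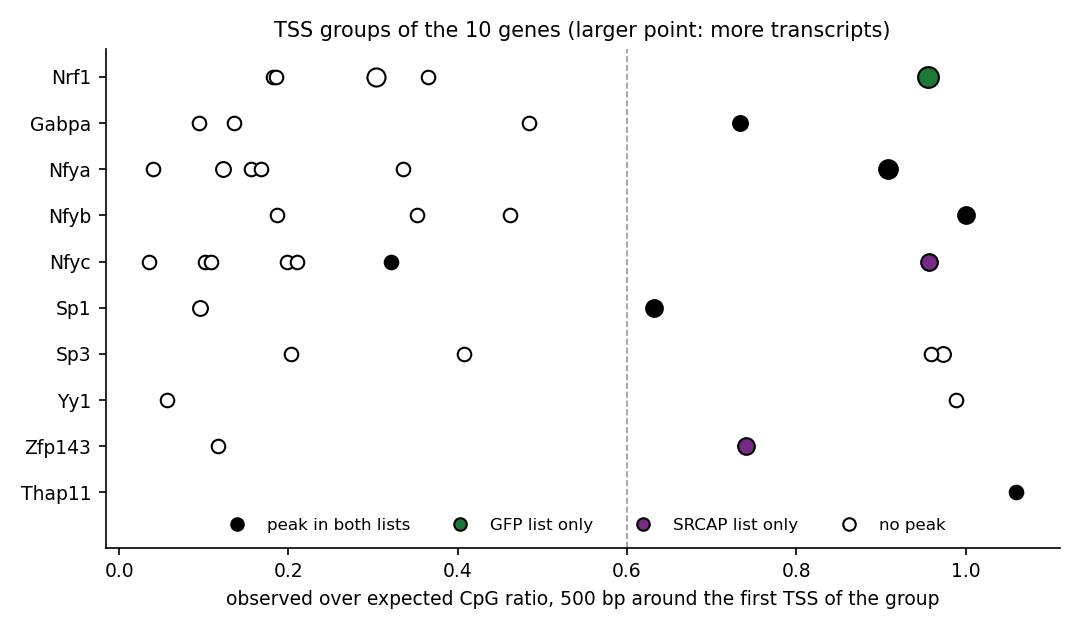
TSS groups of the 10 genes by their observed over expected CpG ratio in 500 bp, with filled points for groups that had a peak (black in both lists, green in the GFP list only, purple in the SRCAP list only), open points for groups without, and larger points for more transcripts. The dashed line marks the ratio of 0.6, to the right of which 8 of 11 groups have a peak, while to its left the black point of Nfyc stands alone among 26.

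At least 1 peak in the gene or within 20 kb was found at all 10 genes with the GFP antibody (100%, 72.2 to 100) and at 9 with the SRCAP antibody (90.0%, 59.6 to 98.2), where Yy1 had none. The shares over all protein-coding genes were 69.7% and 70.4%. They were not computed for genes with CpG-rich promoters, the closer reference for the 10 genes. Longer loci collect more peaks, and per 100 kb of the 784.4 kb examined there were 3.06 GFP peaks (Poisson 95% CI 1.96 to 4.55) and 3.31 SRCAP peaks (2.17 to 4.86). The median over the 10 genes was 2.83 and 3.77 peaks per 100 kb. Over all protein-coding genes the median was 1.91 (quartiles 0 and 4.10) in the GFP list and 1.88 (0 and 3.92) in the SRCAP list. The medians of the 10 genes lie inside these quartiles. A pooled density was not computed over all genes, so the pooled values and their intervals have no like reference. Thap11 had the highest density in the GFP list, with 9.57 per 100 kb of its 41.8 kb locus, and Nfyb the highest in the SRCAP list, with 5.41.

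Outside the promoters, overlapping pairs were found in the flanks of 6 genes and in no gene body. The highest score at any of the 10 loci was downstream of Thap11, where the GFP peak at chr8:105860071-105860586 scored 395 and the SRCAP peak at chr8:105860083-105860631 scored 352 (99.5th and 99.3rd percentiles). That pair is 5.20 and 5.22 kb from the Thap11 TSS, and it lies at the promoters of Nutf2, which encodes the import factor for Ran, and of 4930578M07Rik. A GFP peak of score 31 upstream of Thap11, without a SRCAP counterpart, was at the promoter of Cenpt, a kinetochore gene.

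Sp1 had pairs 12.4 kb upstream (scores 80 and 57 in the GFP and SRCAP lists) and 6.71 and 6.63 kb upstream (137 and 118). The second of these ranked at the 93.8th and 90.4th percentiles, above 4 of the 6 promoter pairs in each list. Together with the promoter pair they placed 3 shared peaks within 12.4 kb at the start of Sp1, and a GFP peak of score 57 in the gene body had no counterpart.

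Nrf1 had a pair 19.4 and 19.6 kb upstream (scores 91 and 39), a pair 6.18 and 6.14 kb past the 3′ end (81 and 73) and a pair 14.1 and 14.0 kb past it (43 and 34). Its shared peaks were thus all distal, while its promoter peak was not shared. The Nrf1 body, 105 kb long, contained a single SRCAP peak of score 20.

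Sp3, without a promoter peak, had a shared pair 15.5 and 15.4 kb upstream, with scores of 70 and 48. Nfyb had a pair 5.18 and 5.07 kb upstream (67 and 34). Nfya had a pair 6.96 and 6.97 kb upstream (36 and 53) that lies in the body of Oard1 and in the promoter window of the transcript AC166164.1. No distal pair was found at Gabpa, Nfyc, Yy1 or Zfp143, and of the unshared distal peaks at those genes the strongest were a GFP peak of score 54 beyond Gabpa and a SRCAP peak of score 68 upstream of Nfyc. A SRCAP peak of score 28 in the body of Zfp143 consisted of repeat-masked sequence over 88.0% of its length.

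The 10 loci thus shared 15 pairs between the antibodies, 6 at promoters and 9 in flanks. Sharing reached 62.5% of the 24 peaks from the GFP antibody (42.7 to 78.8), beside 56.2% of that whole list, and 57.7% of the 26 from the SRCAP antibody (38.9 to 74.5), beside 57.7%. At the promoters 6 of 7 GFP peaks (85.7%, 48.7 to 97.4) and 6 of 8 SRCAP peaks (75.0%, 40.9 to 92.9) were shared, beside 67.5% of all promoter peaks in each list. None of the 5 gene body peaks was shared, 1 from the GFP antibody and 4 from the SRCAP antibody, beside shared shares of 49.4% and 51.0% over all peaks in the bodies of protein-coding genes. The single GFP peak scored 57 and the SRCAP peaks scored 20 to 29, and 5 peaks are too few to set against these shares. The paired midpoints were 5 to 123 bp apart, with a median of 39.0 bp.

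Shared peaks at the 10 loci scored from 36 to 395 in the GFP list (median 81) and from 34 to 352 in the SRCAP list (median 60). Peaks found in 1 list only scored from 27 to 57 in the GFP list (median 42) and from 20 to 68 in the SRCAP list (median 29). The ranges overlap in both lists, and the median of each whole list is 47. The GFP peaks were the wider ones, with a median of 447 bp against 304 bp for the SRCAP peaks, beside 301 and 258 bp over the whole lists.

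**Figure D4:**
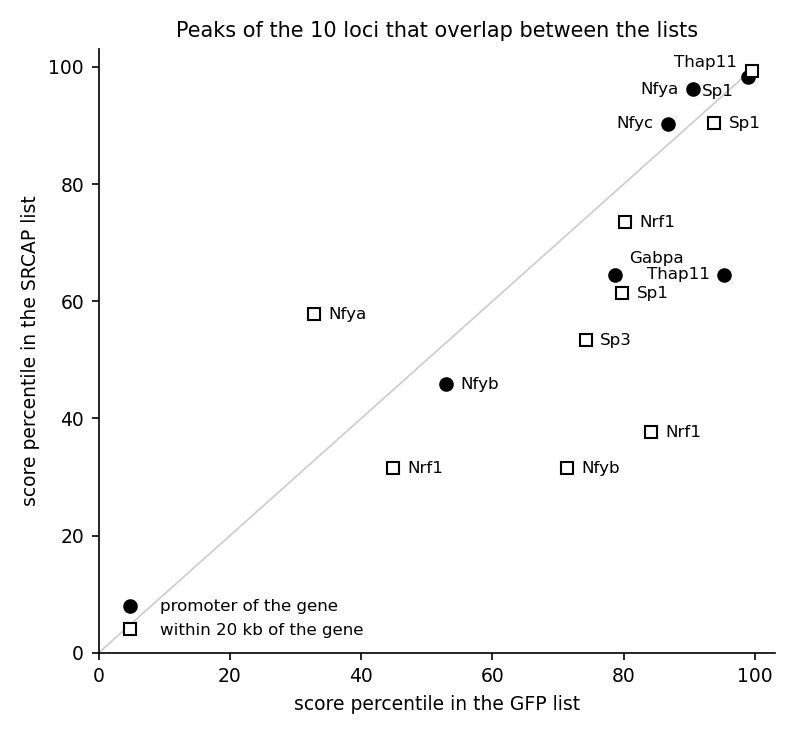
Score percentile by the GFP list (x) and by the SRCAP list (y) for the 15 overlapping pairs, filled circles at promoters and open squares in flanks, with the line of equal percentile. The promoter pairs of Sp1, Nfya and Nfyc, the Thap11 flank pair and 1 Sp1 flank pair are in the upper right corner, and the Thap11 promoter pair is displaced to the right, at 95.3 against 64.5.

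Consensus letters were counted in 200 bp at the midpoint of each promoter peak to describe which of the factors' own motifs stand at their genes. The motif of the gene's own factor was present in 3 of 7 GFP peaks and 3 of 8 SRCAP peaks, at the same 3 genes in each list. These were the ETS motif at Gabpa, the NF-Y motif at Nfyc and the ZFP143 motif at Thap11. Over all promoter peaks the ETS motif was in 7.50% of GFP and 9.16% of SRCAP windows, the NF-Y motif in 16.1% and 19.1%, and the ZFP143 motif in 4.34% and 3.97%. At least 1 of the 6 motifs was in 5 of 7 and 6 of 8 windows at the 10 genes, beside 35.1% and 41.3% over all promoter peaks.

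The other windows held motifs of other factors or none. Sp1 carried the NF-Y motif and no SP motif in its peak windows. Nfyb carried the SP motif, found in 9.72% and 13% of all windows, and in the SRCAP window also the YY1 motif (3.81% and 3.80%). Zfp143 carried the YY1 motif. The Nrf1 and Nfya windows and that of the SRCAP-only peak of Nfyc held none of the 6 motifs, and the NRF1 motif was in no promoter peak window of the set (1.74% and 3.45% of all windows). Over the whole peaks, the NF-Y motif was also present at Nfya in both lists and at Nfyb in the SRCAP list, which gave 4 of 7 and 5 of 8 peaks with the own motif.

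RefSeq promoters, which run from 250 bases before to 50 bases after a start site on GRCm38.p6, were available for all 10 genes, 17 promoters in all. They describe the genes without regard to peaks. The SP motif was in 10 of the 17 (58.8%), beside 16.5% of 32851 promoters, and the NF-Y motif in 8 (47.1%), beside 17.1%. ETS was in 3 of 17 (8.86% of all), YY1 in 3 of 17 (6.05%), and the NRF1 and ZFP143 motifs were in none (2.71% and 4.16%). Several promoters of 1 gene overlap in sequence, so the 17 are not independent. The reference was all RefSeq promoters of any base composition, whereas 9 of the 10 genes have CpG-rich promoters. A CpG-rich reference was not counted for these motifs. The own motif was in 6 of the 17, including 3 NF-Y matches at each of 2 Nfyc promoters. Sp3 and Yy1, the genes without promoter peaks, had 2 SP matches each, at the inner promoter in the case of Sp3. Absence of a match says only that the letters are not in the window.

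The results for Gabpa, Nfya and Zfp143 depend on shared promoters. Leaving out peaks that also lie in the promoter window of another gene, an alternative added after the values were known, left 5 of the 10 genes with a promoter peak in the GFP list, 4 in the SRCAP list and 4 in both, namely Nfyb, Nfyc, Sp1 and Thap11. This exclusion was not applied to all protein-coding genes, so these counts have no background share and cannot be set against the shares given above. When peaks scoring below the median of their list were dropped, 7 of the 10 genes remained in the GFP list, 5 in the SRCAP list and 5 in both. The SRCAP peaks of Nfyb and Zfp143 were under the median. Under this setting the shares of all protein-coding genes were 22.2%, 23.5% and 16.0%. The shares among CpG-rich promoters were not computed for it.

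Related factors and partners were counted for context from a list of 20 genes, of which 19 were analysed. A promoter peak was in the GFP list at 11 of 19 (57.9%, 36.3 to 76.9), in the SRCAP list at 8 (42.1%, 23.1 to 63.7) and in both at the same 8. These were Sp2 (highest promoter scores 278 and 166), Sp4 (52 and 32), Gabpb2 (104 and 44) and Elk1 (82 and 105). The others were Usf1 (52 and 42), Creb1 (13 and 23), Thap1 (58 and 59) and Banp (90 and 97). No promoter peak was found at Yy2, Gabpb1, Elf1, Elf2, Elk4, Thap7, Zbtb33 or Nfx1. The background shares were 35.0%, 35.7% and 27.0% of all protein-coding genes in the GFP list, the SRCAP list and both. With CpG-rich promoters, the class of 14 of the 19, they were 52.4%, 53.4% and 41.2%. The CpG-rich shares lie inside the intervals of the related genes, so no difference from such promoters was detectable. Both outcomes occurred within families, as for Sp1 and Sp3. Of the genes for the GABPA partner subunits, Gabpb2 had peaks and Gabpb1 had none, and of the THAP family Thap11 and Thap1 had peaks in both lists and Thap7 in neither. Thap1 and Banp, like Thap11, lie on chromosome 8, and Thap7 lies on chromosome 16. Promoter peaks in both lists were at 40.7% of the protein-coding genes of chromosome 8 against 26.3% elsewhere. The part of this in the THAP contrast was not tested. Hcfc1, encoding the HCF-1 partner of THAP11, was marked with the GFP antibody only, with a promoter score of 60.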

How the data were processed

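CUT&RUN was done in SYAT mESCs with 1 library per antibody. The files deposited for these libraries are peak lists, 1 for each, giving the position of every peak and a score, a whole number of unstated meaning that is never below 13. The submitters' processing notes name STAR, Picard and MACS2 and the builds mm10 and dm6 without a role. The study's reporting summary describes MACS2 peak calling against an input with a q-value limit in its ChIP-seq section, and whether that covers the CUT&RUN lists is not stated. On a scale of 10 times -log10 q, a score of 13 would be a q-value of 0.0501. Peak ends fit GRCm38. No read counts were used, so depth is unknown and no interval covers more than counting error.

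The peaks were grouped by antibody as the titles name it and intersected with GENCODE vM21 (141730 transcripts) in Python 3.11.15 with numpy 2.4.6, pandas 2.3.3 and scipy 1.17.1. Each peak was placed at its midpoint and called shared from an overlap of 1 bp. Overlaps were checked with bedtools 2.31.1, which gave the same 16138 and 16248 shared peaks. Percentiles are average ranks of the score within a list. The code for promoter assignment was run on simulated peaks placed inside promoter windows, and all 200 planted genes among 55413 were recovered. The same windows served for planting and lookup, so this checks the code only. It does not measure assignment of a peak to a neighbouring gene. Blacklisted regions were not removed. Plots were drawn with matplotlib 3.10.9.

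The 10 genes and the lists were chosen with earlier results of these data known. All 10 genes are named, with every promoter peak; other peaks are named where shared or highest in a list, related genes where both lists or neither had a promoter peak (Hcfc1 and a few unshared distal peaks were named after their values were seen), and neighbouring genes where a peak or TSS is shared. The symbol Zfp76 was not analysed here. Alternatives were other windows, overlap rules, flanks, a score minimum and motif windows.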

Additional observations from a re-analysis of the deposited data

How the results depend on the processing

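No paired analysis was possible because there was no second library of either antibody. Of 87 values under other settings, 70 stayed within 1.5 times or within the counting interval and 17 moved. A change of direction was not assessed. Unless the setting itself removes or adds peaks or genes, the cause was not tested. Dropping peaks below the median score shortens the lists, and gave 12 SRCAP peaks at the 10 loci, or 1.53 per 100 kb. Of these, 91.7% overlapped a peak of the full GFP list, from which no peaks were dropped for this share. The like share was not computed over all SRCAP peaks. Protein-coding genes with a promoter peak became 4861, 5156 and 3504 (GFP, SRCAP, both), or 22.2%, 23.5% and 16.0%. Related genes became 4 in the SRCAP list and 4 in both. Flanks of 10 kb gave 15 GFP peaks at the loci, and flanks of 50 kb gave 44 and 45. With a window of 500 bp either side of the TSS, 7 related genes (36.8%) had a GFP promoter peak, beside 32.4% of all protein-coding genes. Restricting all genes to CpG-rich promoters gave 52.4, 53.4 and 41.2%. Leaving out peaks at another gene's promoter, a setting not run over all genes, left 4 of the 10 genes in the SRCAP list. Searching whole peaks gave 5 SRCAP peaks with the own motif. The absence of a peak at Sp3 and Yy1 is limited by unknown depth and by a calling threshold not stated for CUT&RUN itself.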
